A study of Homo sapiens with 9 samples.

Results

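The genes described here encode the machinery that licenses, fires and copies from DNA replication origins, and they were followed in PANC-1 cells after treatment with TVB-3166. There were 46 genes in 6 role groups. A probe set was taken for a gene when its annotation named exactly 1 gene and that gene, or an older alias of it, was on the list. This gave 84 of the 41091 probe sets that name 1 gene. Of these, 78 had a mean level above the filter on dim probe sets (a signal of 38.95 over the 9 arrays), and all 46 genes kept at least 1 and were among the 13948 genes tested. The brightest probe set stood for each gene.

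PANC-1 is a human pancreatic adenocarcinoma line. TVB-3166 is an inhibitor of fatty acid synthase, the enzyme that makes palmitate. Cells were seeded in serum-containing medium, moved the next day to a medium with charcoal-filtered serum, and held for 72 hours with DMSO vehicle, 0.1 µM TVB-3166 or 1.0 µM TVB-3166, with 3 arrays for each. All groups therefore shared the line, the low-serum medium and the time, and both doses were compared with the same 3 DMSO arrays. Groups were taken from the sample titles, since 1 label field of the 1.0 µM samples gives the lower dose and the description of 0.1 µM replicate 1 says DMSO. The vehicle is given at more than 1 concentration. The lower one stands in the source names of the DMSO samples, and the higher one in the descriptions of the treated and of some DMSO samples. The labels therefore do not settle whether control and treated cultures had the same vehicle level. The labels state triplicate treatments without saying whether the cultures were separate, so the p-values measure the spread between these arrays, which may be technical.

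Replication starts when the origin recognition complex (ORC), with CDC6 and CDT1, loads the ring-shaped MCM2 to MCM7 helicase onto DNA. The kinases CDC7 and CDK2, with TICRR, TOPBP1 and other factors, then add CDC45 and the GINS complex to make the active helicase, called CMG, and polymerases, the PCNA clamp and the RPA proteins follow at the fork. Many of these genes are transcribed around the start of S phase under E2F factors, so their RNA is commonly read as part of a proliferation signature in tumour lines.

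At 1.0 µM, 31 of the 46 genes fell, where a fall is a lower log2(signal + 16) than in DMSO with a limma p below 0.05 after Benjamini-Hochberg adjustment over all 13948 genes. Over all genes 11.0% were called lower. None of the 46 rose, against 12.3% of all genes, and none was higher even at an unadjusted p below 0.05. In 34 of the 46, every 1.0 µM array lay below every DMSO array, against 18.0% of all genes. The median log2 difference of the 46 was -0.60, with a range of -1.80 to 0.13, and the median of all genes was 0.01. The ratio of mean signals, 1.0 µM over DMSO, was below 0.5 in 11 of the 46, a count not made over all genes. These were ORC1, MCM4, CDC45, GINS1, GINS2, GINS4, TICRR, MCM10, POLE2, PCNA and FEN1. In RNA from a whole culture, fewer cells that express a gene and less of its RNA per cell cannot be told apart.

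At 0.1 µM, 25 of the 46 fell, against 5.11% of all genes, and none rose, against 6.89%, nor was any higher at an unadjusted p below 0.05. All 3 arrays lay below all 3 DMSO arrays in 35 of the 46, against 14.6% of all genes. The median log2 difference was -0.49, with a range of -1.37 to 0.09, beside a median of -0.01 over all genes. The ratio of mean signals was below 0.5 in MCM10, GINS1 and POLE2, again not counted over all genes. Across both doses 32 of the 46 were called lower at 1 or both, and 14 at neither. At 0.1 µM the count depended on single arrays: it was 14 without DMSO replicate 1 and 14 without 0.1 µM replicate 3. The same 11 genes lost the call in both cases: ORC1, ORC6, CDC6, GMNN, MCM5, MCM6, CDC45, WDHD1, MCM8, POLD3 and RFC3. Their adjusted p then lay between 0.0536 (GMNN) and 0.142 (ORC6) without the former array, and between 0.0671 (RFC3) and 0.134 (CDC45) without the latter.

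Every treated array carried the lower levels. Set against the DMSO mean, the median of the 46 log2 values was -0.55, -0.39 and -0.57 in the 0.1 µM arrays, and -0.55, -0.60 and -0.62 in the 1.0 µM arrays. The DMSO arrays themselves had medians of 0.08, 0.00 and -0.07. Over all genes the medians of the treated arrays lay between -0.01 and 0.03. Between 38 and 39 of the 46 genes were below the lowest DMSO array in each treated array, a count not made over all genes.

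**Figure D1:**
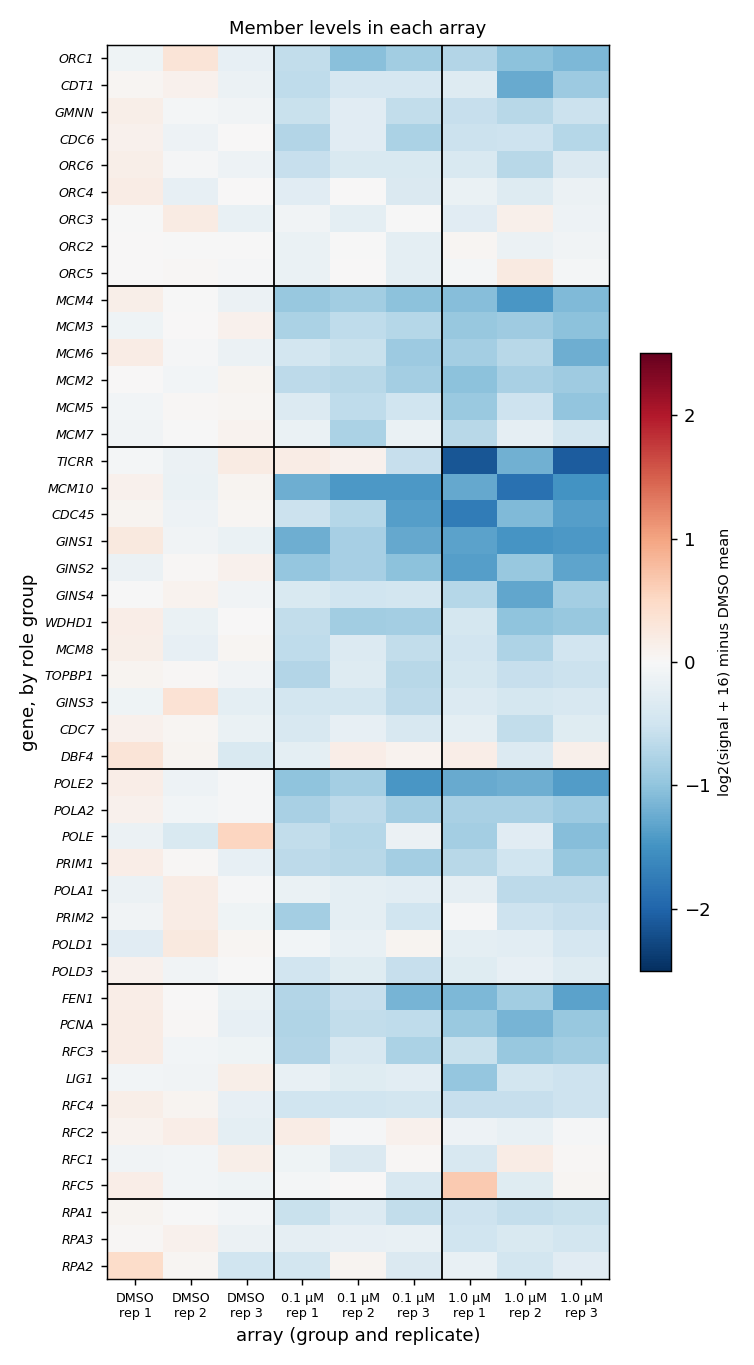
Each row is 1 of the 46 genes, sorted by role, and each column 1 array; the colour gives log2(signal + 16) minus the mean of the 3 DMSO arrays. Blue, for lower levels, fills most of the 6 treated columns, where the median of the 46 genes lies between -0.39 and -0.62, while DBF4 and several ORC and RFC genes stay pale.

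**Figure D2:**
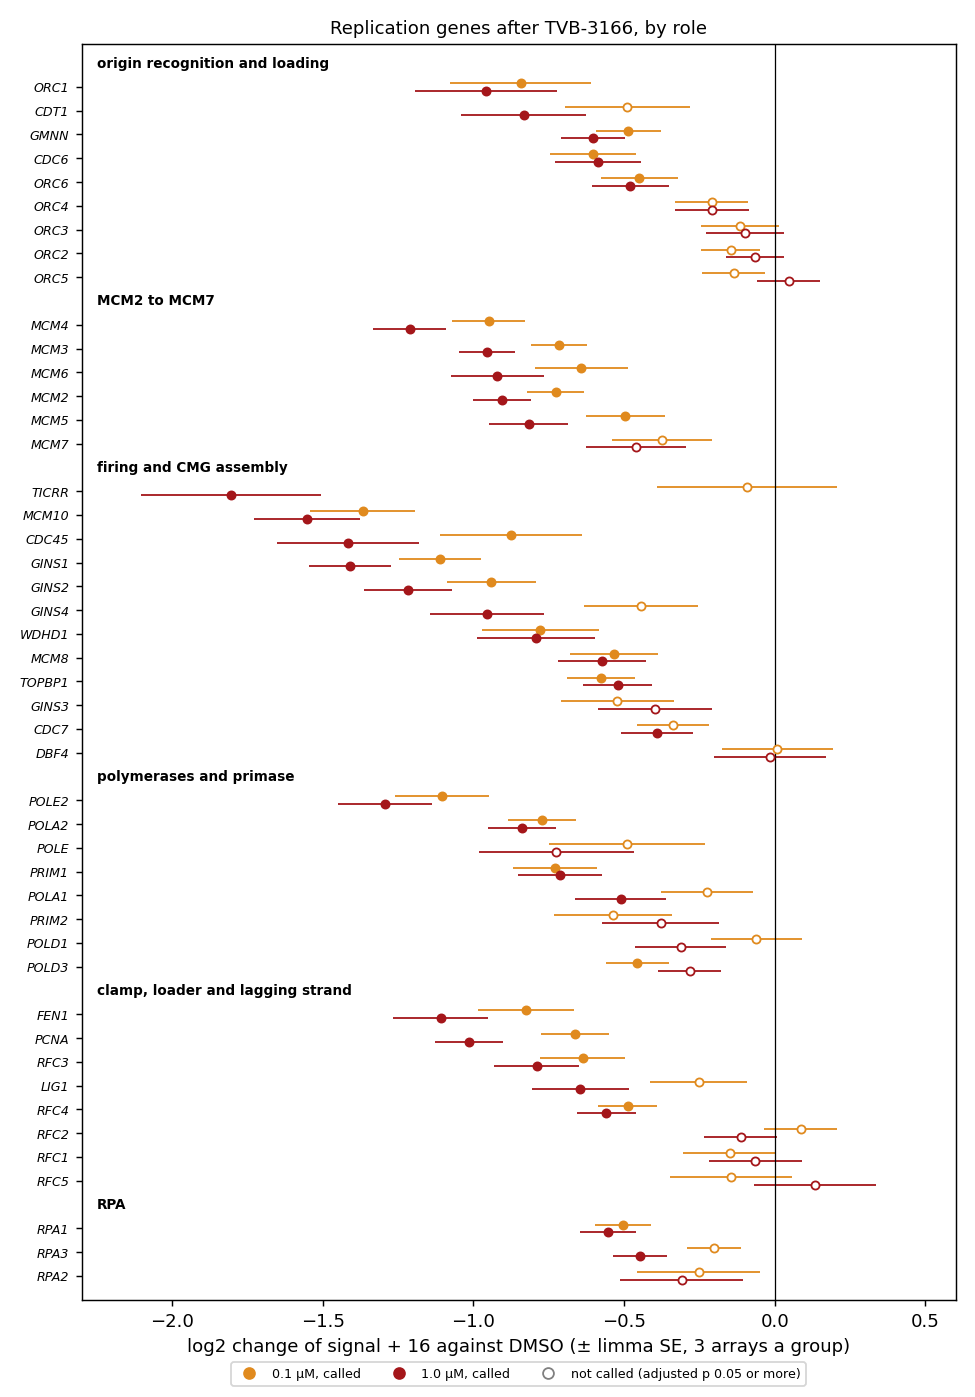
Points give the log2 difference of signal + 16 from DMSO for each gene at 0.1 µM (orange) and 1.0 µM (red), with bars of 1 limma standard error from 3 arrays a group; filled points were called. At 1.0 µM 31 filled points lie left of 0, and TICRR is the gene whose 2 points lie farthest apart.

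The technical measures in the values were these. Each array had a 2% trimmed mean signal of about 500.1, and arrays of a group correlated at 0.981 to 0.990. The hybridisation spike-ins, foreign RNAs added to each sample, split the arrays into a higher set (replicate 2 of DMSO and of 1.0 µM, with replicates 1 and 3 of 0.1 µM) and a lower set of 5. Within the lower set the median log2 difference of the 46 genes was -0.58 at 1.0 µM and -0.40 at 0.1 µM, and within the higher set it was -0.65 and -0.55, from 1 or 2 arrays a group. In a fit of the lower set alone, ORC1 (adjusted p = 0.0893), ORC6 (0.104), CDT1 (0.119), CDC7 (0.214), WDHD1 (0.0557) and POLA1 (0.233) were no longer called at 1.0 µM. At 0.1 µM, where the lower set holds 1 treated array, 21 of the 25 calls were lost and 4 kept (MCM2, MCM4, MCM10 and POLE2). The 6 epithelial and PANC-1 markers (KRT7, KRT8, KRT18, KRT19, VIM and CD44) were all above the filter, with summed signals of 79095 to 111563 in DMSO, 70561 to 104400 at 0.1 µM and 62475 to 92257 at 1.0 µM. Among them KRT8 (-0.86) and KRT19 (-0.90) fell and KRT7 (1.06) rose at 1.0 µM on the log2 scale, and their part in the results was not tested. Some markers of other cell types with a probe set passed the filter. These were 2 of 4 blood and immune, 1 of 3 endothelial, 1 of 3 fibroblast, 2 of 3 prostate and 1 of 4 acinar and endocrine genes. The brightest was the prostate marker KLK3, with a median signal of 465 (310.8 to 535.9). PECAM1 (193.3) and HBB (133.9) came next by median. The summed signals of these markers stayed between 51.5 and 644 in every list and group. PTPRC, CD14, CDH5, VWF, PDGFRB, LUM, FOLH1, CPA1, INS and GCG were below the filter, and no marker of these lists was called at either dose.

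Promoter sequences are shown because the E2F word, the binding word of the factors that drive S phase genes, was common in this set. RefSeq promoters on GRCh38.p14 (250 bases before to 50 after the annotated start) were matched for 40 of the 46 genes. MCM4, MCM5, GINS4, POLD3, RPA2 and RPA3 were not matched. Both strands were searched for TTTCCCGC, TTTCGCGC, TTTGCCGC and TTTGGCGC, words that can overlap in opposite strands. At least 1 stood in 21 of the 40 genes (52.5%), against 711 of the 11218 tested genes with a promoter (6.338%). Counted by promoter, 21 of the 51 promoters of these genes held one (41.18%). This compares with 4.678% of the promoters of tested genes and 3.315% of all 35116 promoters in the table. The windows listed here run 5′ to 3′ on the gene's own strand, with the E2F words in capitals, all before the annotated start. They come from 6 genes that fell at 1.0 µM and, as the last 2, from ORC3 and POLE, which were not called. They lie at chr6:24775311-24775362 (plus strand), chr6:52284887-52284938 (minus strand), chr2:135876566-135876617 (minus strand), chr16:85688956-85689007 (minus strand), chr11:65261887-65261938 (plus strand), chr20:5126652-5126703 (minus strand), chr6:87590101-87590134 (plus strand) and chr12:132687343-132687382 (minus strand).
GMNN: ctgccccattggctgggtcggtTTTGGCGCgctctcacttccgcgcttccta
MCM3: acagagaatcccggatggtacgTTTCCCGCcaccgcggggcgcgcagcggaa
MCM6: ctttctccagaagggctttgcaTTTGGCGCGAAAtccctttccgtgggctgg
GINS2: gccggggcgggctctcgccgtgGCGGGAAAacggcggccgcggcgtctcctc
POLA2: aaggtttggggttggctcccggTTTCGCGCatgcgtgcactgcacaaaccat
PCNA: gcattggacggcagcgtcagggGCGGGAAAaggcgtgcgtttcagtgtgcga
ORC3: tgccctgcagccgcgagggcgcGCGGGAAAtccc
POLE: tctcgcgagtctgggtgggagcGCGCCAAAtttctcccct
In MCM6 the capitals hold overlapping words on opposite strands, and a second such pair stands nearer the start, in the window at chr2:135876504-135876555 (minus strand).

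Among the 27 matched genes called lower at 1.0 µM, 17 held an E2F word (62.96%), and among the 13 not called, 4 did (30.77%): ORC3, MCM7, GINS3 and POLE. Log2 differences at 1.0 µM of the genes with the word ran from -0.10 (ORC3) to -1.41 (GINS1). The word was found for GINS1, GINS2, POLE2 and PCNA, which fell by over 1 log2 unit at 1.0 µM. It was not found in the windows of CDC45, TICRR, MCM10 or FEN1, which also fell by over 1 log2 unit. The part of the word in these falls was not tested. Among the tested genes outside the set, 13.3% of those with an E2F word and 10.9% of those without were called lower at 1.0 µM, and 7.25% and 4.93% at 0.1 µM. The CCAAT word, bound by NF-Y, stood in 22 of the 40 genes (55%), against 42.52% of tested genes. The CHR words TTTGAA and TTCGAA, found in promoters of late cell cycle genes, stood in 2 (5%), against 15.54%. A match is a description of the sequence and not of a bound site.

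Among origin recognition and loading factors, ORC2, ORC3, ORC4 and ORC5 were not called at either dose by the probe sets that stand for them. Differences between called and uncalled genes were not tested. Of the 9 genes, 5 fell at 1.0 µM (ORC1, ORC6, CDC6, CDT1 and GMNN) and 4 at 0.1 µM (the same genes without CDT1). The median log2 difference was -0.48 at 1.0 µM and -0.45 at 0.1 µM. GMNN encodes geminin, which binds CDT1 and blocks reloading of origins, and its signals were 3249, 2857 and 2764 in DMSO, 1989, 2413 and 1933 at 0.1 µM, and 1967, 1816 and 2034 at 1.0 µM. Every treated array was below every DMSO array. Its log2 difference was -0.60 (SE 0.11, adjusted p = 0.00156) at 1.0 µM and -0.49 (SE 0.11, adjusted p = 0.0114) at 0.1 µM.

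CDC6, the ATPase that helps ORC load the helicase, read 805, 679 and 745 in DMSO, 441, 606 and 419 at 0.1 µM, and 505, 516 and 446 at 1.0 µM. The DMSO arrays again lay above all others, and the doses overlapped. On the log2 scale it differed from DMSO by -0.59 (SE 0.14, adjusted p = 0.0109) at 1.0 µM and -0.60 (SE 0.14, adjusted p = 0.0171) at 0.1 µM. ORC1, the ORC subunit whose level follows the cell cycle, read 121, 168 and 113 in DMSO, 80.8, 56.2 and 65.0 at 0.1 µM, and 73.8, 57.0 and 51.9 at 1.0 µM. No treated array reached the lowest DMSO array. The log2 difference of ORC1 was -0.96 (SE 0.23, adjusted p = 0.0111) at 1.0 µM and -0.84 (SE 0.23, adjusted p = 0.0363) at 0.1 µM. CDT1, which brings the MCM ring to ORC, read 376, 391 and 326 in DMSO, 229.9, 269 and 266 at 0.1 µM, and 287, 143 and 185 at 1.0 µM. The groups did not overlap with DMSO at either dose, but only the difference at 1.0 µM, -0.83 (SE 0.21, adjusted p = 0.0124), passed the test, and the one at 0.1 µM was -0.49 (SE 0.21, adjusted p = 0.161).

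ORC5, a core subunit of ORC and the member of this group with the largest p, read 1360.3, 1369 and 1316 in DMSO, 1195, 1358 and 1135 at 0.1 µM, and 1309, 1584 and 1303 at 1.0 µM. The 3 groups overlapped, and the log2 difference was 0.05 (adjusted p = 0.812) at 1.0 µM, with a 95% interval of -0.18 to 0.27. The other core subunits ORC2, ORC3 and ORC4 had log2 differences of -0.07, -0.10 and -0.21 at 1.0 µM and -0.15, -0.11 and -0.21 at 0.1 µM, none called. Their 95% intervals at 1.0 µM were -0.28 to 0.14, -0.38 to 0.18 and -0.48 to 0.06, for the probe sets that stand for these genes. A second, dimmer ORC2 probe set changed by -0.60 (adjusted p = 0.0355) at 1.0 µM, with p adjusted over all probe sets, and is beyond the ORC2 interval. ORC6, the smallest subunit, changed by -0.48 (adjusted p = 0.017) at 1.0 µM and -0.45 (adjusted p = 0.0391) at 0.1 µM. Without DMSO replicate 1 the adjusted p of ORC6 at 1.0 µM was 0.0696.

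The MCM2 to MCM7 genes, which encode the 6 subunits of the helicase ring, were lower as a group. At each dose 5 of the 6 were called lower, all but MCM7, and in all 6 the treated arrays lay below the DMSO arrays. The median log2 difference was -0.91 at 1.0 µM and -0.68 at 0.1 µM. MCM3 had the smallest p, with signals of 1908, 2073 and 2218 in DMSO, 1183, 1315 and 1251 at 0.1 µM, and 1060.2, 1108 and 1005 at 1.0 µM. The 3 groups were fully separated and ordered by dose. For MCM3 the log2 difference came to -0.95 (SE 0.09, adjusted p = 1.68e-05) at 1.0 µM and -0.72 (SE 0.09, adjusted p = 0.000335) at 0.1 µM.

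MCM4 showed the largest difference of the ring, with signals of 1695, 1527 and 1388 in DMSO, 782, 831 and 745 at 0.1 µM, and 722, 548 and 701 at 1.0 µM. Here too no groups overlapped. Relative to DMSO, MCM4 differed on the log2 scale by -1.21 (SE 0.12, adjusted p = 2.30e-05) at 1.0 µM and -0.95 (SE 0.12, adjusted p = 0.000333) at 0.1 µM. MCM2 read 2546, 2402 and 2640.3 in DMSO, 1611, 1564 and 1395 at 0.1 µM, and 1239, 1443 and 1352 at 1.0 µM, so that only the doses overlapped with each other. Its log2 difference was -0.91 (SE 0.09, adjusted p = 3.10e-05) at 1.0 µM and -0.73 (SE 0.09, adjusted p = 0.000354) at 0.1 µM. MCM5 and MCM6 changed by -0.82 (adjusted p = 0.00078) and -0.92 (adjusted p = 0.00106) at 1.0 µM, and by -0.50 (adjusted p = 0.0281) and -0.64 (adjusted p = 0.0178) at 0.1 µM.

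MCM7, whose gene also hosts a cluster of miRNAs in an intron, read 1836, 1949.6 and 2090.5 in DMSO, 1736, 1123 and 1746 at 0.1 µM, and 1201, 1678 and 1416 at 1.0 µM. The treated arrays spread widely, from 1123 to 1746 at 0.1 µM. On the log2 scale it differed from DMSO by -0.46 (SE 0.17, adjusted p = 0.0664) at 1.0 µM, with a 95% interval of -0.82 to -0.10, and -0.37 (SE 0.17, adjusted p = 0.182) at 0.1 µM. Without 0.1 µM replicate 2 or without 1.0 µM replicate 2 it was called lower at 1.0 µM (adjusted p = 0.0168 and 0.0297).

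Firing and CMG assembly factors held the largest falls of the 46 genes. Of the 12, 10 fell at 1.0 µM and 7 at 0.1 µM, with median log2 differences of -0.87 and -0.56. GINS1, a subunit of the GINS complex, read 2549, 2034 and 1931 in DMSO, 918, 1210.3 and 873 at 0.1 µM, and 845, 771 and 790.2 at 1.0 µM. All groups were separate, with the 1.0 µM arrays lowest. The log2 difference of GINS1 was -1.41 (SE 0.14, adjusted p = 1.72e-05) at 1.0 µM and -1.11 (SE 0.14, adjusted p = 0.000252) at 0.1 µM. MCM10, a factor that helps activate the assembled helicase, read 493, 406 and 478 in DMSO, 187, 159 and 158 at 0.1 µM, and 178, 113 and 151 at 1.0 µM. Its highest treated array read 187 and its lowest DMSO array 406, and the doses overlapped. The log2 difference of MCM10 was -1.55 (SE 0.17, adjusted p = 5.60e-05) at 1.0 µM and -1.37 (SE 0.17, adjusted p = 0.000324) at 0.1 µM.

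GINS2, a partner of GINS1, read 486, 546 and 581 in DMSO, 265, 296 and 256 at 0.1 µM, and 196, 269 and 207 at 1.0 µM, again with DMSO above every treated array. For GINS2 the log2 difference came to -1.22 (SE 0.15, adjusted p = 9.42e-05) at 1.0 µM and -0.94 (SE 0.15, adjusted p = 0.00131) at 0.1 µM. CDC45, the remaining part of CMG, changed by -1.42 (adjusted p = 0.00106) at 1.0 µM and -0.87 (adjusted p = 0.0316) at 0.1 µM. GINS4 fell at 1.0 µM alone by the test, with -0.95 (adjusted p = 0.00316) against -0.44 (adjusted p = 0.162), and GINS3 was called at neither dose, with -0.40 (adjusted p = 0.159) and -0.52 (adjusted p = 0.0991). Between the doses GINS4 differed by -0.51 (adjusted p = 0.295), with a 95% interval of -0.92 to -0.10.

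TICRR, which with TOPBP1 loads CDC45 under CDK control, had the largest fall at 1.0 µM and was the one gene called between the doses. Its signals were 132, 124 and 161 in DMSO, 159.8, 149.9 and 88.1 at 0.1 µM, and 19.2, 50.9 and 20.6 at 1.0 µM. The 1.0 µM arrays lay far below both other groups, and the 0.1 µM arrays overlapped with DMSO. Relative to DMSO, TICRR differed on the log2 scale by -1.80 (SE 0.30, adjusted p = 0.000987) at 1.0 µM and -0.09 (SE 0.30, adjusted p = 0.891) at 0.1 µM. Between the doses, 1.0 against 0.1 µM, the log2 difference was -1.71 (SE 0.30, adjusted p = 0.0249). Because 2 of the 1.0 µM signals were under the filter level of 38.95, the added 16 makes this fall smaller than the ratio of signals. Its dimmer second probe set differed by -1.08 (adjusted p = 0.269) at 1.0 µM and -0.70 (adjusted p = 0.743) between doses, with p adjusted over all probe sets. The call between doses ended without 0.1 µM replicate 1 (adjusted p = 0.142), 0.1 µM replicate 2 (0.0957), 1.0 µM replicate 1 (0.111) or 1.0 µM replicate 3 (0.127).

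Of the kinase that triggers firing, the catalytic subunit was called and the activating one was not. DBF4, its activating subunit, read 2165, 1807 and 1317 in DMSO, 1464, 1948 and 1843 at 0.1 µM, and 1931, 1360.3 and 1895 at 1.0 µM. The groups overlapped throughout, and the log2 difference was -0.02 (adjusted p = 0.967) at 1.0 µM, with a 95% interval of -0.42 to 0.39. CDC7, the catalytic subunit, read 1379, 1341 and 1153 in DMSO, 972, 1107 and 970.2 at 0.1 µM, and 1077, 834 and 1042 at 1.0 µM, with no overlap between DMSO and either dose. Its log2 difference was -0.39 (adjusted p = 0.0339) at 1.0 µM and -0.34 (adjusted p = 0.0923) at 0.1 µM. The call on CDC7 ended when any of 4 arrays was left out: DMSO replicate 1 (adjusted p = 0.11), DMSO replicate 2 (0.0999), 1.0 µM replicate 2 (0.0956) or 1.0 µM replicate 3 (0.0539). The difference between the CDC7 and DBF4 changes was not tested.

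The remaining genes of the group fell at both doses. TOPBP1, the scaffold that also activates the ATR kinase, changed by -0.52 (adjusted p = 0.00589) at 1.0 µM and -0.58 (adjusted p = 0.00604) at 0.1 µM. WDHD1, which links the helicase to polymerase alpha, changed by -0.79 (adjusted p = 0.0114) and -0.78 (adjusted p = 0.0223). MCM8, an MCM relative outside the ring that works in recombination, changed by -0.57 (adjusted p = 0.0137) and -0.53 (adjusted p = 0.0334). At 1.0 µM, WDHD1 lost its call without 1.0 µM replicate 3 (adjusted p = 0.0501) and MCM8 without DMSO replicate 1 (0.0574).

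**Figure D3:**
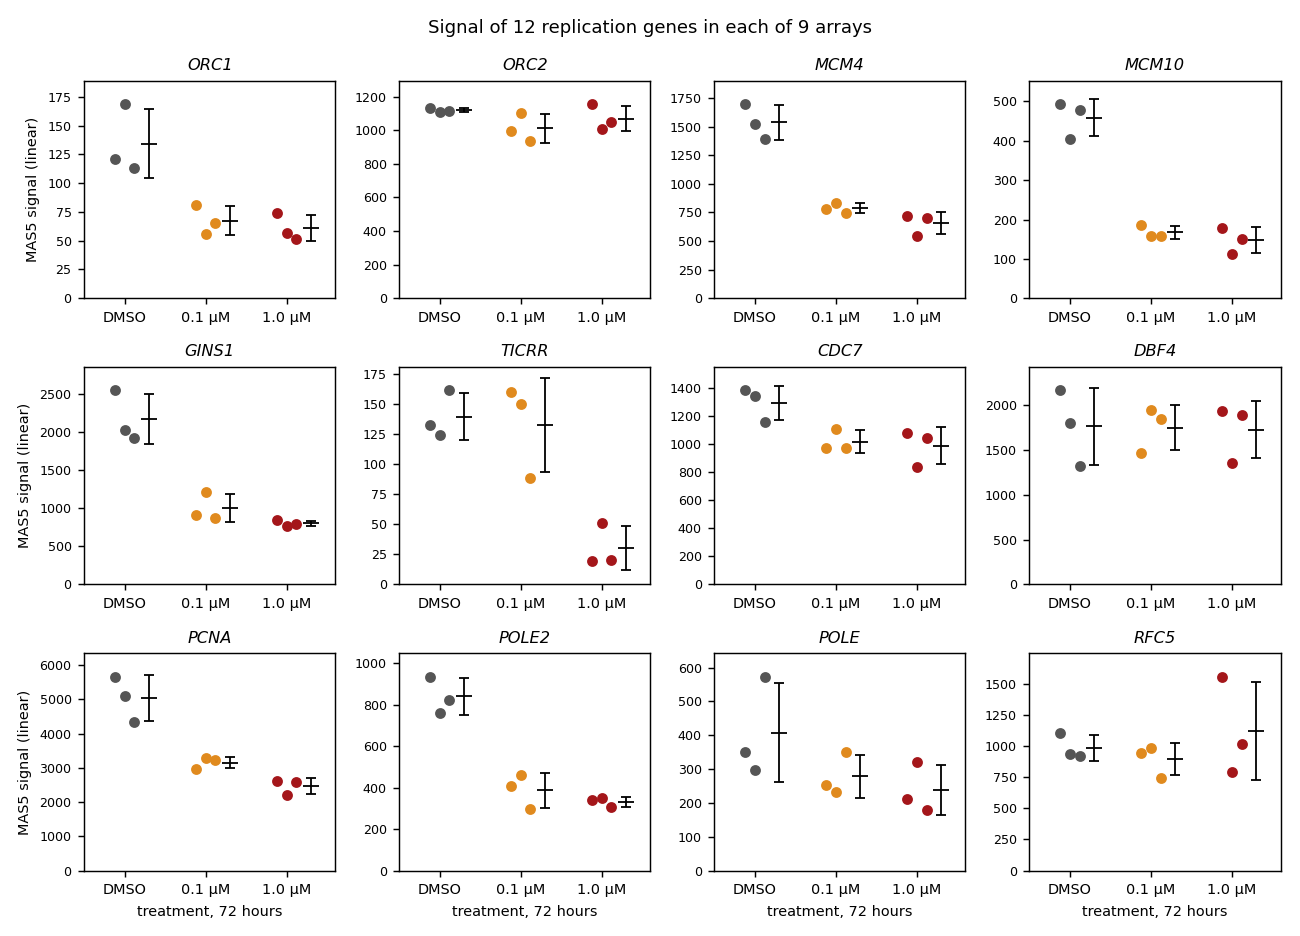
Panels give the MAS5 signal (linear, from 0) of 12 genes in each array by treatment, with the group mean ± 1 SD of 3 arrays beside the points. In MCM4, MCM10, GINS1, PCNA and POLE2 every treated array lies below every DMSO array, TICRR is low in the 1.0 µM arrays alone, and DBF4 overlaps in all groups.

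Polymerase and primase genes all had a negative log2 difference at both doses, and differences between subunits were not tested. Of the 8, 4 fell at 1.0 µM (POLE2, POLA2, PRIM1 and POLA1) and 4 at 0.1 µM (POLE2, POLA2, PRIM1 and POLD3), with median log2 differences of -0.61 and -0.51. POLE2, the second subunit of the leading strand polymerase epsilon, read 936, 761 and 824 in DMSO, 407, 459.8 and 295 at 0.1 µM, and 341, 351 and 306 at 1.0 µM. Its 3 DMSO arrays stood clear of the rest. On the log2 scale it differed from DMSO by -1.29 (SE 0.16, adjusted p = 9.42e-05) at 1.0 µM and -1.10 (SE 0.16, adjusted p = 0.000647) at 0.1 µM. POLE, the catalytic subunit of the same enzyme, varied widely among the DMSO arrays, with 352, 297 and 573 there and 212, 321 and 180.4 at 1.0 µM, and the groups overlapped. Its log2 difference of -0.72 (SE 0.26, adjusted p = 0.0624) at 1.0 µM was not called, and its 95% interval was -1.29 to -0.16. POLE was called without DMSO replicate 2 (adjusted p = 0.0396) and without 1.0 µM replicate 2 (0.0197). It also differed between the spike-in sets, at 0.10 in the higher and -1.14 in the lower set for 1.0 µM against DMSO, and the part of the spike-in level in this was not tested.

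Polymerase alpha and primase start each new strand with a short RNA and DNA primer. POLA2, the accessory subunit of polymerase alpha, read 702, 622 and 642 in DMSO, 365, 412 and 355 at 0.1 µM, and 368, 366 and 343 at 1.0 µM. Treated arrays lay below DMSO throughout, and the doses overlapped. The log2 difference of POLA2 was -0.84 (SE 0.11, adjusted p = 0.000213) at 1.0 µM and -0.77 (SE 0.11, adjusted p = 0.000809) at 0.1 µM. PRIM1, the catalytic primase subunit, read 959, 862 and 736 in DMSO, 531, 522 and 466 at 0.1 µM, and 517, 598 and 431 at 1.0 µM. The groups separated from DMSO in the same way. For PRIM1 the log2 difference came to -0.71 (SE 0.14, adjusted p = 0.00293) at 1.0 µM and -0.73 (SE 0.14, adjusted p = 0.00501) at 0.1 µM.

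PRIM2, the partner of PRIM1, read 316, 385 and 312 in DMSO, 179, 280.0 and 233 at 0.1 µM, and 328, 229.7 and 219 at 1.0 µM. At 1.0 µM 1 array overlapped with DMSO, and at 0.1 µM none did. Relative to DMSO, PRIM2 differed on the log2 scale by -0.38 (adjusted p = 0.195) and -0.54 (adjusted p = 0.103), neither called. POLA1, the catalytic subunit of polymerase alpha, changed by -0.51 (adjusted p = 0.0291) at 1.0 µM, a call that ended without DMSO replicate 2 (adjusted p = 0.107), DMSO replicate 3 (0.055), 1.0 µM replicate 2 (0.0772) or 1.0 µM replicate 3 (0.111). At 0.1 µM POLA1 differed by -0.22 (adjusted p = 0.402).

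Polymerase delta copies the lagging strand. POLD1, its catalytic subunit, differed by -0.31 (adjusted p = 0.169) at 1.0 µM and -0.06 (adjusted p = 0.853) at 0.1 µM, neither called. POLD3, an accessory subunit, read 1127, 981 and 1034 in DMSO, 745, 843 and 694 at 0.1 µM, and 840.0, 903 and 830.2 at 1.0 µM. All treated arrays were below the DMSO arrays, yet by the test POLD3 was called at 0.1 µM, with -0.46 (adjusted p = 0.0137), and not at 1.0 µM, with -0.28 (adjusted p = 0.0702). Between the doses POLD3 differed by 0.17 (adjusted p = 0.551), with a 95% interval of -0.05 to 0.40.

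Clamp, clamp loader and lagging strand genes were called in part, and differences between them were not tested. Of the 8, 5 fell at 1.0 µM (PCNA, FEN1, LIG1, RFC3 and RFC4) and 4 at 0.1 µM (the same without LIG1), with median log2 differences of -0.60 and -0.37. PCNA, the ring that holds polymerases on DNA, read 5664, 5102 and 4331 in DMSO, 2973, 3275 and 3224 at 0.1 µM, and 2621, 2213 and 2590.2 at 1.0 µM. The 3 groups were separate and ordered by dose. Its log2 difference was -1.01 (SE 0.11, adjusted p = 4.84e-05) at 1.0 µM and -0.66 (SE 0.11, adjusted p = 0.00223) at 0.1 µM. FEN1, the nuclease that trims flaps between lagging strand fragments, read 2082, 1874 and 1655 in DMSO, 1111, 1241 and 826 at 0.1 µM, and 851, 1009 and 727 at 1.0 µM. DMSO arrays were highest, and the doses overlapped. On the log2 scale it differed from DMSO by -1.11 (SE 0.16, adjusted p = 0.000347) at 1.0 µM and -0.82 (SE 0.16, adjusted p = 0.00522) at 0.1 µM. LIG1, the ligase that joins the fragments, changed by -0.65 (adjusted p = 0.0128) at 1.0 µM and differed by -0.25 (adjusted p = 0.377) at 0.1 µM. Without 1.0 µM replicate 1 its adjusted p at 1.0 µM was 0.0555.

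The RFC genes encode the 5 subunits of the loader that places PCNA on DNA. RFC4 read 3405, 3251 and 2664 in DMSO, 2169, 2183 and 2242 at 0.1 µM, and 2061, 2073 and 2146 at 1.0 µM. Its 3 groups did not overlap, although the doses lay close together. The log2 difference of RFC4 was -0.56 (SE 0.10, adjusted p = 0.00153) at 1.0 µM and -0.49 (SE 0.10, adjusted p = 0.00695) at 0.1 µM. RFC3 changed by -0.79 (adjusted p = 0.00166) and -0.64 (adjusted p = 0.0119). RFC1, the large subunit and the gene of this group with the largest p, read 797, 805 and 936 in DMSO, 779, 656 and 858 at 0.1 µM, and 631, 957 and 867 at 1.0 µM, with all groups overlapping. For RFC1 the log2 difference came to -0.06 (adjusted p = 0.823) at 1.0 µM, with a 95% interval of -0.40 to 0.27. RFC2 differed by -0.11 (adjusted p = 0.569) at 1.0 µM and 0.09 (adjusted p = 0.72) at 0.1 µM.

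RFC5 depended on the probe set. The brightest one read 1106, 934 and 917 in DMSO, 948, 987 and 745 at 0.1 µM, and 1556, 791 and 1019 at 1.0 µM. Replicate 1 of 1.0 µM was the highest and the groups overlapped, and the log2 difference was 0.13 (adjusted p = 0.703). The other 2 probe sets of RFC5 differed at 1.0 µM by -0.77 (adjusted p = 0.00246) and -0.65 (adjusted p = 0.00783), with p adjusted over all 32768 probe sets. The mean of its probe sets gave -0.43 (adjusted p = 0.0277).

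The RPA genes encode the 3 subunits of the complex that covers single-stranded DNA. At 1.0 µM RPA1 and RPA3 fell, and at 0.1 µM RPA1 did. RPA1, the large DNA-binding subunit, read 3889.9, 3712 and 3551 in DMSO, 2511, 2938 and 2422 at 0.1 µM, and 2586, 2462 and 2529 at 1.0 µM. Both doses lay below DMSO and overlapped each other. Relative to DMSO, RPA1 differed on the log2 scale by -0.55 (SE 0.09, adjusted p = 0.00112) at 1.0 µM and -0.50 (SE 0.09, adjusted p = 0.00406) at 0.1 µM. RPA3, the smallest subunit, read 4819, 5053 and 4269 in DMSO, 4014, 4082 and 4154 at 0.1 µM, and 3328, 3607 and 3406 at 1.0 µM. Its groups were separate and ordered by dose, with a log2 difference of -0.45 (SE 0.09, adjusted p = 0.00349) at 1.0 µM and -0.20 (SE 0.09, adjusted p = 0.181) at 0.1 µM.

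RPA2, the subunit that is phosphorylated under replication stress, read 4983, 3732 and 2561 in DMSO, 2624, 3788 and 2826 at 0.1 µM, and 3176, 2637 and 2983 at 1.0 µM. The DMSO arrays covered the whole range of the treated arrays. Its log2 difference was -0.31 (SE 0.21, adjusted p = 0.327) at 1.0 µM and -0.25 (SE 0.21, adjusted p = 0.499) at 0.1 µM. Without DMSO replicate 3, the lowest of its 9 signals, RPA2 was called lower at 1.0 µM (adjusted p = 0.0441).

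Few of these genes differed between the doses by the test. Between 1.0 and 0.1 µM, 1 of the 46 was called lower (TICRR) and none higher, against 0.430% and 0.387% of all genes. In 34 of the 46 the 1.0 µM level was the lower one, with a median log2 difference of -0.12 and a range of -1.71 to 0.28. The median of all genes was 0.005, and the share of all genes with a lower level was not counted. At an unadjusted p below 0.05, 9 were lower and none higher, where 12.4% of all genes had such a p in either direction. Every 1.0 µM array lay below every 0.1 µM array in 11 genes, against 8.73% of all genes: MCM3, MCM4, GINS1, GINS4, TICRR, POLD1, PCNA, RFC2, RFC4, LIG1 and RPA3. In GINS3 alone the order was turned, with all 1.0 µM arrays above. The log2 difference between doses was -0.35 (adjusted p = 0.208) in PCNA, with a 95% interval of -0.60 to -0.11, and -0.18 (adjusted p = 0.743) in MCM10, with -0.57 to 0.20. A p above the threshold does not show that the doses act alike.

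Different probe sets of a gene gave a wider view. At 1.0 µM 45 of the 78 probe sets were called lower and none higher, against 8.68% of all 32768 probe sets called lower. At 0.1 µM 35 were, against 3.66%, and between the doses 2 were, against 0.159%. The 32768 also include probe sets naming several genes or none, whereas each of the 78 names 1 gene. Of the 23 genes with at least 2 probe sets above the filter, every probe set was lower in sign at 1.0 µM in 18. This was not counted over all genes. Among the 23 genes, 14 were called lower at 1.0 µM, and in 5 of these 14 every probe set was called lower. MCM4 had 4, with log2 differences from -1.62 to -1.21, and 1 of them was also called between the doses, at -0.86 (adjusted p = 0.034). MCM10 had 3, from -1.83 to -0.76, all called at 1.0 µM. In ORC2 the second probe set alone was called, as given with the origin genes.

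Signs differed between probe sets at 1.0 µM in 5 genes: GINS2, CDT1, POLD3, ORC5 and RFC5. The second GINS2 probe set, with a mean signal of 76.3, differed by 0.18 (adjusted p = 0.761) at 1.0 µM and 1.00 (adjusted p = 0.0591) at 0.1 µM. The second CDT1 probe set differed by 0.00 (adjusted p = 0.997) at 1.0 µM, and the second POLD3 probe set by 0.42 (adjusted p = 0.673). One of the dimmer ORC5 probe sets differed by -0.40 (adjusted p = 0.459). When the probe sets of each gene were averaged, the adjusted p at 1.0 µM was 0.1 for CDT1, 0.0516 for GINS2 and 0.052 for GINS4, none of them called. The probe sets that stood for 21 of the 46 genes carry an s, x or a suffix, which marks sequences that can also match related transcripts. By probe sets without such a suffix, which are dimmer, POLA2 (adjusted p = 0.853) and WDHD1 (0.298) were not called at 1.0 µM. Nor was GINS2, whose probe set of this kind is the second one, at 0.18. Not every one of the 46 genes had such a probe set.

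**Figure D4:**
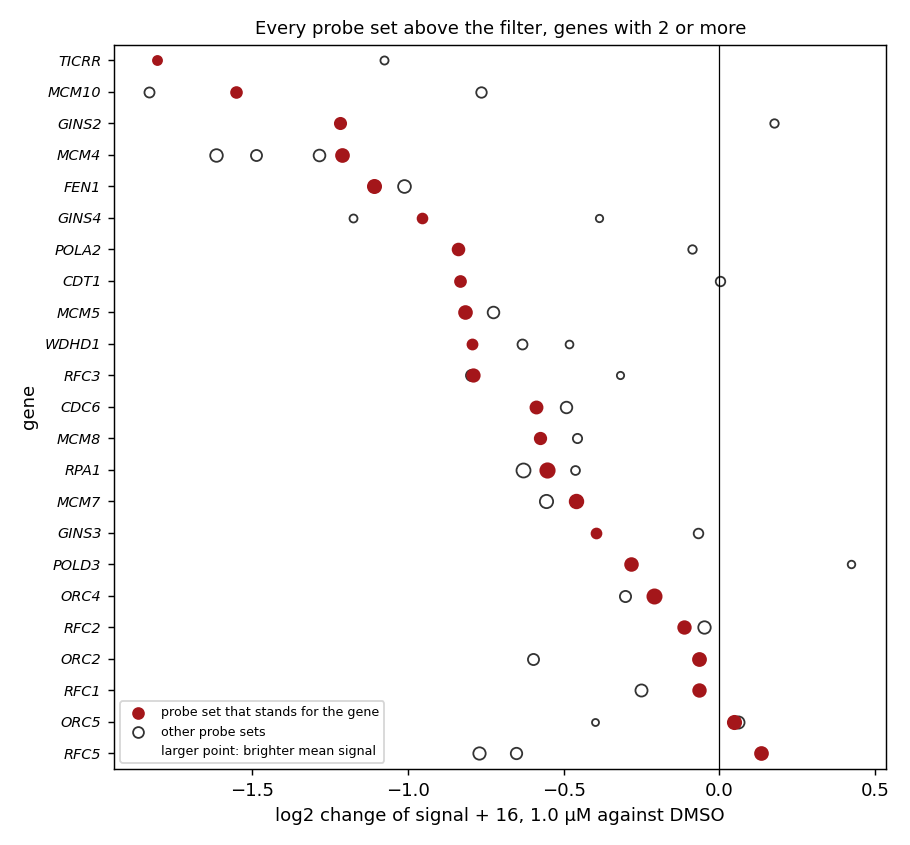
Points give the log2 difference of signal + 16 between 1.0 µM and DMSO for every probe set above the filter in the 23 genes with at least 2; red points stand for the gene, and larger points are brighter. In 18 genes all points lie left of 0, and RFC5 has its brightest probe set at 0.13 with the other 2 at -0.77 and -0.65.

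Other genes that act in or around DNA replication were followed from a separate list. Of 50 listed, 47 were tested, and 20 of the 47 fell and 3 rose at 1.0 µM, against 11.0% and 12.3% of all genes, with a median log2 difference of -0.29. At 0.1 µM 14 fell and 1 rose, against 5.11% and 6.89%, and between the doses none was called, with 7 lower at an unadjusted p below 0.05. By list at 1.0 µM, 8 of 23 fork accessory and checkpoint genes, 5 of 12 licensing and firing control genes and 7 of 12 chromatin assembly genes fell. TOP2A, the topoisomerase that separates copied chromosomes, read 2910.3, 2622 and 2414 in DMSO, 1176, 1439 and 1155 at 0.1 µM, and 986, 765 and 994 at 1.0 µM, with all groups separate. On the log2 scale it differed from DMSO by -1.52 (SE 0.13, adjusted p = 6.03e-06) at 1.0 µM. ASF1B, a histone chaperone of dividing cells, read 725, 712 and 764 in DMSO, 371, 269.7 and 359.7 at 0.1 µM, and 308, 284 and 307 at 1.0 µM, with both doses below DMSO. The log2 difference of ASF1B was -1.25 (SE 0.13, adjusted p = 3.75e-05). NASP, another histone chaperone, read 3790.0, 4024 and 4055 in DMSO, 2614, 2406 and 2544 at 0.1 µM, and 1963, 2485 and 1997 at 1.0 µM, with the same order and a log2 difference of -0.88 (SE 0.10, adjusted p = 6.52e-05).

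The 3 that rose at 1.0 µM were TIPIN, TOP1 and ASF1A. TIPIN, part of the complex that stabilises forks, read 1032, 902 and 855 in DMSO, 1269.6, 1344 and 1281 at 0.1 µM, and 1714, 1558 and 1704 at 1.0 µM. Its groups were separate and ordered by dose, with a log2 difference of 0.83 (SE 0.10, adjusted p = 6.72e-05) at 1.0 µM and 0.48 (SE 0.10, adjusted p = 0.00655) at 0.1 µM. TOP1, the topoisomerase that relaxes DNA ahead of the fork, read 4397, 4365 and 4569.6 in DMSO and 5268, 6040.3 and 5313 at 1.0 µM, without overlap, and rose by 0.31 (adjusted p = 0.0215) on the log2 scale. ASF1A, the paralogue of ASF1B, read 1972, 1965 and 1662 in DMSO and 2549, 2591 and 2557 at 1.0 µM and rose by 0.46 (adjusted p = 0.00284) on the same scale. At 1.0 µM the paralogues ASF1A and ASF1B thus had opposite signs, both past the test.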

How the data were processed

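Total RNA of 9 PANC-1 samples was hybridised to HG-U133 Plus 2.0 arrays from Affymetrix. The deposited values are linear intensities, 1 for each probe set, which the authors made with MAS5 per the submitters' processing notes (version: not given in the sources used here). The trimmed mean was about 500.1 on every array, so a change in total RNA per cell would not appear. The number of arrays limits the precision.

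Values were used as log2(signal + 16), which understates changes of dim genes. Of 54675 probe sets, 62 controls were left out, and 32768 of the rest lay above the 40th percentile of mean level. Before this cut the rest held 1801 probe sets naming several genes and 11721 naming none. Those above the cut were left out of the fit over genes but kept in the fit over all probe sets. Symbols came from the platform annotation, updated by Entrez identifier to RefSeq. All groups were fitted together in limma 3.58.1 (R 4.3.3; lmFit, then eBayes with a trend; 6 residual degrees of freedom), with Benjamini-Hochberg adjustment over 13948 genes, or 32768 probe sets where stated. The fit was tested on simulated data. Intervals are 95% limma intervals.

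The genes and lists, and the rule for genes given array by array (the 3 smallest and the largest p of each role group, genes called between doses, and genes whose probe sets differ in sign), were chosen with earlier results of these data known. CDC7 and POLE were added to that rule after their values were seen.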

Additional observations from a re-analysis of the deposited data

How the results depend on the processing

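At 1.0 µM the number of the 46 replication genes called lower stayed within 1.5 times of 31 under every alternative run, with 28 to 32 when single arrays were left out. The shares of all genes called in these alternative runs are not given here, so the counts of this section cannot be set against them. Of the 31 genes, 16 were called in every setting that gave a value for them (24 or 25) and 15 lost the call in at least 1. At 0.1 µM 4 of the 25 were called in every setting that gave a value and 21 lost the call in at least 1. That count was 15 of 34 genes with probe sets lacking an s, x or a suffix, where 1 gene (GINS2) was called higher. It was 4 in the lower spike-in set alone, where the 0.1 µM arm is 1 array assumed to vary like the other groups, and leaving out single arrays gave 14 to 26. Between the doses the 1 call was 0 with no filter, with a filter at the 60th percentile, without the variance trend, with only the 6 arrays compared and in the lower spike-in set. It was 2 over all probe sets, 5 with array weights, and 0 to 1 when single arrays were left out. Of the other replication genes, over all 99 probe sets 36 were lower at 1.0 µM and 25 at 0.1 µM. In the lower spike-in set 3 were lower at 0.1 µM. Leaving out single arrays gave as few as 8 at 0.1 µM and as many as 1 between the doses, where array weights gave 8 and the spike-in set as a block gave 1. Among differences called in the fit as reported or in the alternative, signs turned in 2 genes: RFC5 at 1.0 µM was -0.43 with the mean of its probe sets, and GINS2 was 0.031 at 0.1 µM with the mean, and 0.18 at 1.0 µM and 1.00 at 0.1 µM by its probe set without a suffix. Differences called in neither also crossed 0, such as POLD3 at 1.0 µM, from -0.36 to 0.07. Fewer genes or arrays enter the settings that drop probe sets or arrays; for the rest the cause was not tested. With the replicate number as a block (replicate block), 29, 20 and 0 of the 46 were called lower at 1.0 µM, 0.1 µM and between the doses. Same-numbered arrays deviated from their group means with correlations of -0.34 to 0.22, so the numbers were not taken to pair the samples.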
